A study of Mus musculus with 6 samples.

Results

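The genes described here are receptors and ligands of the neuregulin, EGF, FGF, IGF and HGF systems that are linked to growth and proliferation of cardiomyocytes (CMs). They were taken by gene symbol (*Erbb2*, *Erbb3*, *Erbb4*, *Nrg1*, *Egfr*, *Fgfr1*, *Igf1r*, *Igf1*, *Igf2r* and *Met*), and all 10 were found among the 16448 genes of the deposited table. RNA-seq had been carried out on adult CMs of 3 CtrlCre and 3 Cpt1bcKO samples from C57BL/6 mice aged 8 to 12 weeks. CtrlCre mice carry αMHC-Cre and wild-type *Cpt1b* alleles, whereas Cpt1bcKO mice carry αMHC-Cre and loxP-flanked *Cpt1b* alleles, so that Cre is present in both groups. The αMHC (*Myh6*) promoter drives recombination in CMs from embryonic stages on, which makes every measurement one of long-lasting loss. CMs had been obtained by enzymatic digestion and low-speed centrifugation of ventricles without sorting. The labels only number the samples. A legend of the study speaks of separate mice for genes that overlapped with these data, without naming the libraries, so the *P* values are those of the spread between these samples.

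NRG1 and IGF1 are secreted ligands, and the other products are receptors of the tyrosine kinase type, apart from IGF2R, which binds IGF2 and mannose-6-phosphate tags and delivers its cargo to lysosomes. In the heart, endothelial cells release neuregulin, and ERBB4 on the CM binds it and signals as a dimer with ERBB2, which has no ligand of its own. IGF1R, FGFR1 and MET respond to IGF1, to several FGFs and to hepatocyte growth factor (HGF), respectively, and all of them feed into the RAS–ERK and PI3K–AKT cascades. Neuregulin signalling through ERBB2 and ERBB4 is needed for heart development and is known for promoting growth and division of CMs.

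The values are read counts per gene scaled by the authors with 1 size factor a sample and then rounded, and they are called normalized counts below. Totals ranged from 13393411 to 31722217 per sample, of which *mt-Rnr2*, a mitochondrial rRNA gene, took 61.8% to 80.8%. Without mitochondrial-encoded and rRNA genes the totals lay between 3146414 and 3551692. In the 3 samples in which the spacing of low values could be resolved, 1 read was worth 0.682 to 1.29 normalized counts, so that a value of 15 rests on roughly as many reads. The targeted gene *Cpt1b* was lower in every Cpt1bcKO sample (211 to 353 normalized counts) than in every CtrlCre sample (893 to 1861). Sample 1 of each group carried *Xist* with a sum of at most 1 normalized count over 4 Y-linked genes and was taken as female, and the other 4 samples were taken as male, so a value between the female samples below is the difference of 1 pair of libraries and has no error.

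Genotypes were compared with limma's moderated test of log2(value + 1) in the 11364 genes that reached 10 normalized counts in 3 or more samples, with Benjamini–Hochberg adjustment over all of them. The added 1 makes fold changes of low genes too small. All 10 growth factor genes passed the filter, *Nrg1* only through its higher samples. Of the 10 genes, 2 had an adjusted *P* value below 0.05, *Met* (higher) and *Erbb4* (lower), beside 1.57% of all genes tested. Before adjustment, 3 genes lay below 0.05, the third being *Igf1*, beside 13.9% of all genes. The groups did not overlap in 5 of the 10, 4 of them higher (*Met*, *Igf1*, *Egfr* and *Igf1r*) and 1 lower (*Erbb4*), beside 18.7% of all genes. As the genes were chosen with earlier results of these data known, these counts are descriptions. With 3 samples against 3, exact permutation of 1 gene's values cannot go below *P* = 0.10.

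**Figure D1:**
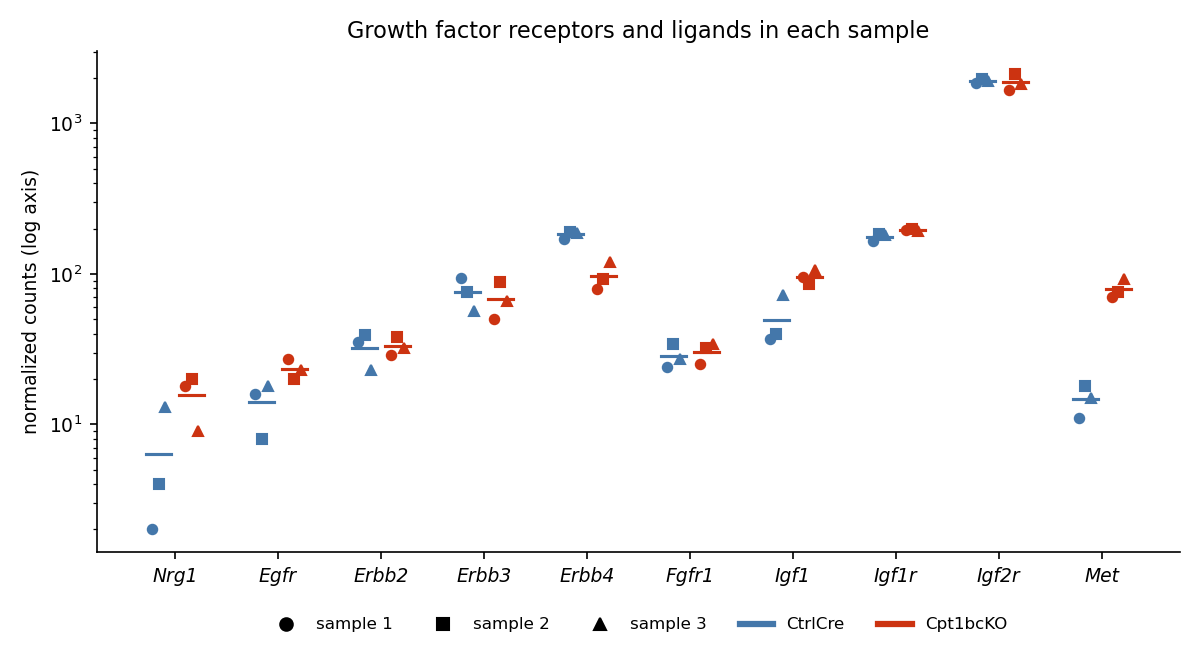
Normalized counts (log axis) of the 10 genes in each sample, with circles, squares and triangles for samples 1, 2 and 3, blue for CtrlCre and red for Cpt1bcKO, and a bar at each group mean. *Met* is higher and *Erbb4* lower in all 3 Cpt1bcKO samples, whereas the symbols of *Erbb2*, *Erbb3*, *Fgfr1* and *Igf2r* mix.

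*Met*, which encodes the HGF receptor, rose most. *Met* (ENSMUSG00000009376, GRCm38 chromosome 6, bases 17463800 to 17573980 of the plus strand) had 11, 18 and 15 normalized counts in CtrlCre CMs and 70, 76 and 93 in Cpt1bcKO CMs. The lowest Cpt1bcKO sample was thus well above the highest CtrlCre sample. The means were 14.7 ± 3.51 and 79.7 ± 11.9 (SD, *n* = 3 each), and the fitted difference was 5.20-fold (95% interval 3.38 to 8.01). On the log2 scale the change was 2.38 (standard error 0.281), with an adjusted *P* value of 0.00338 in limma. It was 2.56 between the female samples and 2.29 between the male samples. In the 16 alternative fits of the same comparison the change of *Met* lay between 2.11 and 2.53 on the log2 scale, and limma's adjusted *P* value ranged from 0.000758 to 0.0320. No gene is annotated on the opposite strand of *Met* in GENCODE vM21. In bulk samples such as these, here and below, fewer cells of a type and less RNA per cell cannot be told apart.

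The ligand of MET was hardly detected in these CMs. *Hgf* had 3, 2 and 2 normalized counts in CtrlCre CMs and 3, 4 and 1 in Cpt1bcKO CMs, below the filter on low values, so a change of *Hgf* was not detectable at this depth. *Spint2*, an inhibitor of the protease that activates HGF, had a log2 fold change of 0.11 (limma's adjusted *P* = 0.878). Of the 6 listed genes of HGF and its control, 3 were in the table and only *Spint2* was tested. *Gab1*, a docking protein that MET binds directly, had 330, 243 and 296 normalized counts in CtrlCre and 184, 154 and 236 in Cpt1bcKO CMs. Every Cpt1bcKO sample of *Gab1* was below every CtrlCre sample, but the change of −0.61 on the log2 scale (SE 0.198) did not pass the test (limma's adjusted *P* = 0.198). *Gab1* passed the threshold with a block for the sample number (limma's adjusted *P* = 0.0417) but not with sex as covariate (0.0824).

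*Erbb4*, the neuregulin-binding receptor of CMs, fell in Cpt1bcKO CMs. *Erbb4* (ENSMUSG00000062209, GRCm38 chromosome 1, bases 68032186 to 69108059 of the minus strand) had 170, 191 and 187 normalized counts in CtrlCre CMs and 79, 92 and 119 in Cpt1bcKO CMs. The CtrlCre samples were close to each other, and the highest Cpt1bcKO sample was below the lowest of them. The means were 183 ± 11.2 and 96.7 ± 20.4 (SD, *n* = 3 each), a fitted level of 0.525 times the control (95% interval 0.389 to 0.709). Its log2 fold change was −0.93 (SE 0.196 and limma's adjusted *P* = 0.0477), just inside the threshold. The difference was −1.10 between the female samples and −0.85 between the male samples. The call depended on single samples. Without CtrlCre sample 1, 2 or 3 the adjusted *P* value in limma was 0.0993, 0.170 or 0.166, without Cpt1bcKO sample 1 or 2 it was 0.0599 or 0.211, and without Cpt1bcKO sample 3 it was 0.0291. The log2 fold change in these 6 fits lay between −1.09 and −0.80. When samples were scaled to their total outside mitochondrial-encoded and rRNA genes, it was −0.82 (limma's adjusted *P* = 0.0724), and a single prior variance for all genes gave an adjusted *P* value of 0.138 in limma.

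The receptors that pair with ERBB4 did not pass the test. *Erbb2*, the coreceptor without a ligand, had 35, 39 and 23 normalized counts in CtrlCre and 29, 38 and 32 in Cpt1bcKO CMs. *Erbb3*, a neuregulin receptor with little kinase activity of its own, had 94, 76 and 57 in CtrlCre and 50, 88 and 66 in Cpt1bcKO CMs. The samples of the groups were interleaved for both genes. *Mien1*, on the opposite strand, overlaps *Erbb2* and had a mean of 14.3 normalized counts. The log2 fold change of *Erbb2* was 0.05 (95% interval −0.60 to 0.70, adjusted *P* = 0.959 in limma) and that of *Erbb3* was −0.16 (95% interval −0.76 to 0.44, adjusted *P* = 0.838 in limma). The fitted change of *Erbb4* (−0.93) was outside both intervals, but its own 95% interval (−1.36 to −0.50) overlapped them. A difference between these genes was not tested. The direction of *Erbb3* differed between the sexes, with −0.90 between the female and 0.21 between the male samples, which was not tested. *Egfr*, the receptor of EGF and HB-EGF, had 16, 8 and 18 normalized counts in CtrlCre and 27, 20 and 23 in Cpt1bcKO CMs. Every Cpt1bcKO sample of *Egfr* was above every CtrlCre sample, by as little as 2 normalized counts. The log2 fold change of *Egfr* was 0.76 (SE 0.390 and limma's adjusted *P* = 0.422) and 0.43 without CtrlCre sample 2, and the antisense gene *Egfros*, which is listed in the table, overlaps it.

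None of the ErbB ligands passed the test. *Nrg1* had 2, 4 and 13 normalized counts in CtrlCre and 18, 20 and 9 in Cpt1bcKO CMs. CtrlCre sample 3 lay above Cpt1bcKO sample 3, so the groups overlapped. The log2 fold change of *Nrg1* was 1.42 (95% interval −0.0022 to 2.83, unadjusted *P* = 0.0503 and limma's adjusted *P* = 0.360), and it has the largest standard error of the 10 (0.639). It was 0.92 without CtrlCre sample 1 and 2.03 without CtrlCre sample 3, and 2.66 between the female against 0.79 between the male samples. CtrlCre sample 1 was also lowest in the summed endothelial markers described below (1196 against 2286 and 2545 in CtrlCre samples 2 and 3). These markers differed by 0.74 to 2.40 between the female and by −0.09 to 0.74 between the male samples. Their part in the values of *Nrg1* was not tested. *Nrg2* (0 to 7) and *Nrg4* (0 to 13 normalized counts) fell short of the filter. *Hbegf*, the HB-EGF gene, had 120, 82 and 87 normalized counts in CtrlCre and 81, 118 and 87 in Cpt1bcKO CMs, which gave a log2 fold change of −0.014 (limma's adjusted *P* = 0.985). *Egf* had 26, 44 and 28 in CtrlCre and 39, 43 and 84 in Cpt1bcKO CMs, with overlapping groups and an adjusted *P* value of 0.404 in limma. Of the 10 listed ErbB ligands, 3 were tested and 0 had an unadjusted *P* value below 0.05 in limma, beside 13.9% of all genes.

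Among proteins that control ErbB signalling, the gene of ADAM19 passed the test. It encodes a membrane metalloprotease that can release neuregulin from its membrane-bound precursor. *Adam19* (ENSMUSG00000011256, GRCm38 chromosome 11, bases 46055992 to 46147343 of the plus strand) had 81, 51 and 121 normalized counts in CtrlCre and 366, 445 and 285 in Cpt1bcKO CMs. All Cpt1bcKO samples were more than 100 normalized counts above every CtrlCre sample. *Adam19* rose by 2.16 on the log2 scale (SE 0.292 and limma's adjusted *P* = 0.00642), with 2.16 both between the female and between the male samples. Without Cpt1bcKO sample 2 its change was 2.01 with an adjusted *P* value of 0.0527 in limma, as for *Pik3r1* below. With a single prior variance for all genes the call of *Adam19* was also lost (limma's adjusted *P* = 0.0698). The other 8 tested genes of this list, which include the proteases *Adam10*, *Adam17* and *Bace1* and the receptor inhibitors *Errfi1* and *Lrig1*, had no unadjusted *P* value below 0.05, beside 13.9% of all genes.

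**Figure D2:**
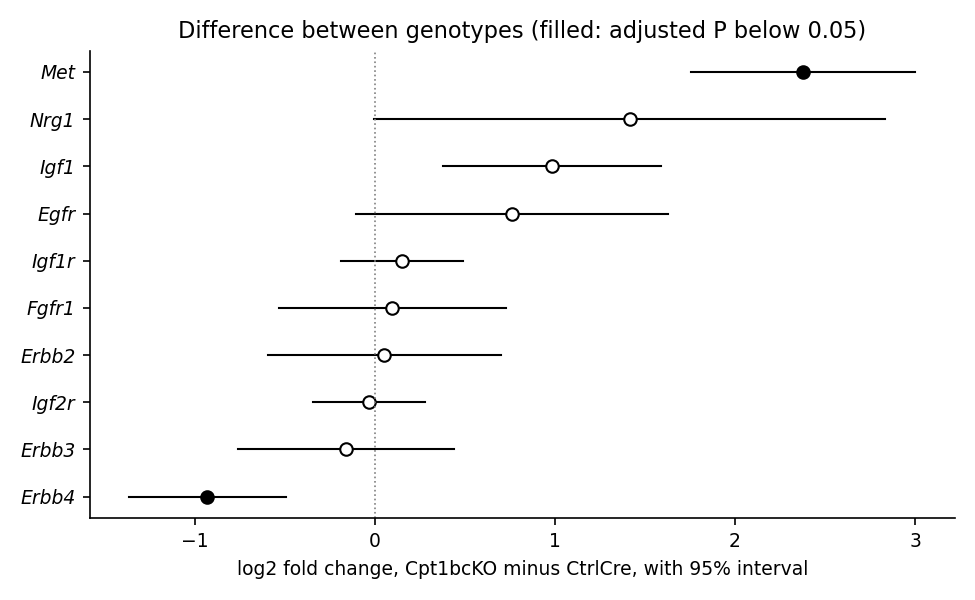
Log2 fold change (Cpt1bcKO minus CtrlCre) of the 10 genes from limma with its 95% interval, with filled circles for an adjusted *P* value below 0.05. *Met* at 2.38 and *Erbb4* at −0.93 are filled, and the interval of *Igf1* also lies apart from 0.

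*Igf1*, the ligand of IGF1R, had 37, 40 and 72 normalized counts in CtrlCre and 95, 85 and 106 in Cpt1bcKO CMs. All Cpt1bcKO samples were above all CtrlCre samples, of which sample 3 stood higher than the other two. On the log2 scale *Igf1* differed by 0.99 (SE 0.273), with limma's adjusted *P* = 0.128 (unadjusted *P* = 0.00447). *Igf1* (ENSMUSG00000020053, GRCm38 chromosome 10, bases 87858265 to 87937042 of the plus strand) therefore missed the threshold over all genes. Its difference was 1.34 between the female and 0.81 between the male samples. *Igf1r*, the receptor of IGF1, had 166, 184 and 180 normalized counts in CtrlCre and 195, 200 and 194 in Cpt1bcKO CMs. The groups of *Igf1r* did not overlap, but the log2 fold change was only 0.15 (95% interval −0.19 to 0.49, adjusted *P* = 0.707 in limma). *Igf2r*, which clears IGF2, had 1861, 1969 and 1905 normalized counts in CtrlCre and 1675, 2144 and 1817 in Cpt1bcKO CMs. The Cpt1bcKO samples of *Igf2r* lay on both sides of the controls, with a log2 fold change of −0.03 (95% interval −0.34 to 0.28, adjusted *P* = 0.945 in limma). *Airn*, an antisense RNA gene with a mean of 43.0 normalized counts, overlaps *Igf2r*.

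The other genes of the IGF system did not pass the test either. *Igf2*, the second ligand, had 12, 41 and 80 normalized counts in CtrlCre and 39, 41 and 43 in Cpt1bcKO CMs, so that the controls alone spanned the Cpt1bcKO values. *Insr*, the insulin receptor, had a log2 fold change of −0.11 (95% interval −0.45 to 0.23, adjusted *P* = 0.792 in limma). Of the 16 listed IGF binding proteins and signalling adaptors, 11 were tested, 0 had an adjusted *P* value below 0.05 in limma, beside 1.57% of all genes, and 2 had an unadjusted one, a share near the 13.9% of all genes. *Grb10*, an adaptor that dampens signals of the insulin and IGF1 receptors, had 526, 535 and 464 normalized counts in CtrlCre and 341, 360 and 335 in Cpt1bcKO CMs. Its samples did not overlap, with a log2 fold change of −0.55 (SE 0.140 and limma's adjusted *P* = 0.0928). With sex as covariate or a replicate block *Grb10* passed the threshold (limma's adjusted *P* = 0.0247 and 0.0231). *Igfbp7*, a secreted IGF-binding protein of vessels, had 24, 40 and 63 in CtrlCre and 70, 72 and 96 in Cpt1bcKO CMs, a log2 fold change of 0.98 (SE 0.330 and limma's adjusted *P* = 0.208), and overlaps *Polr2b* on the opposite strand (mean 327 normalized counts).

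*Fgfr1* did not differ between the genotypes beyond its spread. This receptor of FGF1 and FGF2 had 24, 34 and 27 normalized counts in CtrlCre and 25, 32 and 34 in Cpt1bcKO CMs. The values were interleaved, with a log2 fold change of 0.10 (95% interval −0.53 to 0.73, adjusted *P* = 0.915 in limma). *Fgfr3* (12 to 21 normalized counts) and the decoy-like receptor *Fgfrl1* had adjusted *P* values of 0.870 and 0.456 in limma. *Fgfr2* and *Fgfr4* had no row in the deposited table and were not analysed here.

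None of the tested FGF ligands passed the adjusted threshold, and the groups did not overlap in 3 of the 4, beside 18.7% of all genes. *Fgf16*, a ligand typical of the heart, had 65, 52 and 54 normalized counts in CtrlCre and 35, 20 and 19 in Cpt1bcKO CMs. *Fgf2* had 56, 75 and 74 in CtrlCre and 20, 32 and 44 in Cpt1bcKO CMs. In both genes every Cpt1bcKO sample was below every CtrlCre sample. The log2 fold change of *Fgf16* was −1.22 (SE 0.296 and limma's adjusted *P* = 0.0802) and that of *Fgf2* was −1.13 (SE 0.307 and limma's adjusted *P* = 0.121), so neither passed the threshold in the comparison as reported. With sex as covariate both passed it (limma's adjusted *P* = 0.0183 and 0.0233), as with a replicate block (0.0265 and 0.0289). Without Cpt1bcKO sample 1 the log2 fold change of *Fgf16* was −1.49 with an adjusted *P* value of 0.0242 in limma. *Fgf2* overlaps *Nudt6* on the opposite strand, which had a mean of 22.2 normalized counts. *Fgf1*, the most abundant FGF gene of the list, had 1122, 1064 and 1049 normalized counts in CtrlCre and 979, 810 and 973 in Cpt1bcKO CMs, a log2 fold change of −0.23 (limma's adjusted *P* = 0.484). Of 9 listed FGF ligands, 4 were tested, and 0 had an adjusted and 2 an unadjusted *P* value below 0.05 in limma, beside 1.57% and 13.9% of all genes. Of 11 listed genes that relay, restrain or report FGF signalling, 10 were tested, among them *Frs2*, *Frs3*, *Spry1*, *Spry2*, *Spry4*, *Spred1*, *Dusp6* and *Etv5*. Their median log2 fold change was 0.38, against −0.0013 over all genes tested. Of the 10 values, 9 lay above 0 and 1 below, beside 5655 above and 5709 below over all genes tested. None of these 10 had an unadjusted *P* value below 0.05 in limma, beside 13.9% of all genes, and 1 of the 10, the ERK phosphatase gene *Dusp6*, did not overlap between the groups, beside 18.7%. *Spry1*, an inhibitor of receptor signalling, differed by 1.54 on the log2 scale between the female samples and by 0.33 between the male samples. *Spry4* also differed more between the female samples. *Etv5* instead differed more between the male samples (−0.07 between the female and 0.63 between the male samples). *Spry2* was below 0 in both (−0.28 and −0.39). The 8 endothelial marker genes described below differed by 0.74 to 2.40 between the female and by −0.09 to 0.74 between the male samples, and their summed level was 1.23 times the control, that of fibroblast markers 1.82 times. Their part in the values of the FGF list was not tested.

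Downstream of the receptors of the tyrosine kinase type, *Pik3r1* fell. It encodes p85α, the regulatory subunit that ties PI3K to activated receptors. *Pik3r1* (ENSMUSG00000041417, GRCm38 chromosome 13, bases 101680563 to 101768217 of the minus strand) had 1621, 1631 and 1508 normalized counts in CtrlCre and 705, 671 and 879 in Cpt1bcKO CMs. The gap between the groups was wider than the range within either. *Pik3r1* fell by 1.09 on the log2 scale (SE 0.146 and limma's adjusted *P* = 0.00618). Its change was −1.20 between the female and −1.03 between the male samples, and −1.01 without Cpt1bcKO sample 2 (limma's adjusted *P* = 0.0527). The call of *Pik3r1* was also lost with a single prior variance for all genes (limma's adjusted *P* = 0.0761). No other gene of the RAS–ERK and PI3K core list, which includes *Pik3ca* and *Akt1*, had an adjusted *P* value below 0.05.

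Over the whole list of 95 further genes of these pathways, 78 were in the table and 67 were tested. After adjustment 1 higher gene (*Adam19*) and 1 lower gene (*Pik3r1*) lay below 0.05, beside 0.66% and 0.906% of all genes tested. Before adjustment 2 higher and 6 lower genes did, beside 6.66% and 7.22% of all genes. The lower genes included *Pik3r1*, *Fgf16*, *Grb10*, *Fgf2* and *Gab1*, and the higher ones were *Adam19* and *Igfbp7*. The groups did not overlap in 5 higher and 11 lower genes, beside 9.13% and 9.6% of all genes. The median log2 fold change of the list was 0.0080.

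**Figure D3:**
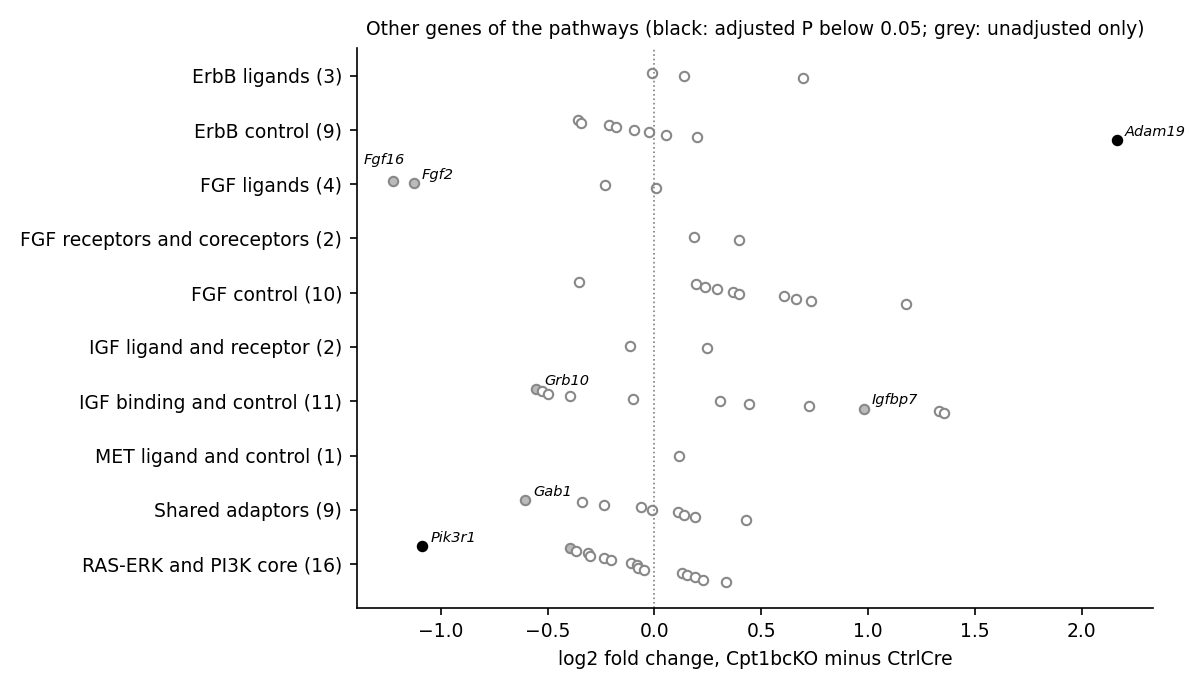
Log2 fold change (Cpt1bcKO minus CtrlCre) of the 67 tested genes of the pathways, in rows by role with the number of genes tested in brackets, with black symbols for an adjusted and grey ones for only an unadjusted *P* value below 0.05. *Adam19* at 2.16 and *Pik3r1* at −1.09 are the black symbols.

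The table places the remaining genes in GRCm38 as follows. The ErbB receptors and their ligand are *Erbb2* (ENSMUSG00000062312) on chromosome 11 from 98412470 to 98437716, plus strand, *Erbb3* (ENSMUSG00000018166) on chromosome 10 from 128567523 to 128589652, minus strand, *Egfr* (ENSMUSG00000020122) on chromosome 11 from 16752203 to 16918158, plus strand, and *Nrg1* (ENSMUSG00000062991) on chromosome 8 from 31814551 to 32884029, minus strand. The FGF and IGF receptors are *Fgfr1* (ENSMUSG00000031565) on chromosome 8 from 25518759 to 25575718, plus strand, *Igf1r* (ENSMUSG00000005533) on chromosome 7 from 67952827 to 68233668, plus strand, and *Igf2r* (ENSMUSG00000023830) on chromosome 17 from 12682406 to 12769664, minus strand.

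Levels of different genes were compared per kb of annotated exon. In CtrlCre CMs *Igf2r* stood far above the others with 205 ± 5.83 normalized counts per kb (SD, *n* = 3). *Erbb4* (14.8 ± 0.903), *Erbb3* (12.6 ± 3.08) and *Igf1r* (10.5 ± 0.563) followed, and *Erbb3* overlapped both of its neighbours in this order. *Erbb2* (6.21 ± 1.60) and *Igf1* (5.01 ± 1.96) overlapped each other and lay below these. *Fgfr1* (2.87 ± 0.520), *Met* (1.91 ± 0.457), *Egfr* (1.24 ± 0.467) and *Nrg1* (0.612 ± 0.566) were lowest, with overlap between *Met* and *Egfr* and between *Egfr* and *Nrg1*. In Cpt1bcKO CMs *Met* moved from rank 8 to rank 4 with 10.4 ± 1.55 normalized counts per kb, and *Erbb4* from rank 2 to rank 6 with 7.82 ± 1.65. *Igf1r* (11.7 ± 0.191), *Erbb3* (11.3 ± 3.17), *Met* and *Igf1* (9.63 ± 1.06) each overlapped the next gene in the order of the Cpt1bcKO CMs. The exon lengths are unions over all annotated transcripts, so levels per kb are approximate.

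Genes whose values ran most alike to *Met* over the 6 samples were *Cog4*, *Ip6k3* and *Sergef*, with Pearson's *r* of 0.997, 0.989 and 0.988 on the log2 scale. For *Erbb4* they were *Rbfox1*, *Atp2a2* and *Nfib*, with 0.992, 0.991 and 0.989. These are descriptions over 6 samples that fall into 2 genotypes, picked from 11364 genes, and of the 6 only *Rbfox1*, which encodes a splicing regulator, had an adjusted *P* value below 0.05 (log2 fold change −1.28 and limma's adjusted *P* = 0.0111).

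Markers of CMs were by far the most abundant of the marker lists in all samples, but RNA of other cells was present. The 8 CM markers (*Myh6*, *Tnnt2*, *Tnni3*, *Actn2*, *Ryr2*, *Ttn*, *Myl2* and *Myl3*) summed to between 518307 and 615842 normalized counts in CtrlCre and between 337923 and 559407 in Cpt1bcKO samples. All 8 had log2 fold changes below 0 (median −0.38), beside 5709 of the 11364 genes tested. Of the 8, 0 passed the adjusted threshold in limma as reported, beside 1.57% of all genes. *Tnni3*, which encodes cardiac troponin I, did not overlap between the groups and had a fitted level of 0.501 times the control (limma's adjusted *P* = 0.136, unadjusted *P* = 0.00503). It did pass with sex as covariate, with a replicate block, without Cpt1bcKO sample 1 and in males only. The level of *Myh6* was 0.721 times the control, also without overlap (limma's adjusted *P* = 0.407). The 8 fibroblast markers summed to between 498 and 785 in CtrlCre and between 1108 and 1338 in Cpt1bcKO samples, so every Cpt1bcKO sample was higher. Of the 7 fibroblast markers tested, 2 rose with an adjusted *P* value below 0.05 in limma, beside 0.66% of all genes. All 7 had log2 fold changes above 0 with an unadjusted *P* value below 0.05 in limma, beside 6.66% of all genes. *Lum*, a matrix proteoglycan gene, had a log2 fold change of 1.46 and *Col1a1*, a collagen gene, of 1.32 (adjusted *P* = 0.0143 each in limma). Both calls were lost without CtrlCre sample 3 (0.0622 and 0.0519) and without Cpt1bcKO sample 2 (0.0691 and 0.0813), that of *Lum* also without CtrlCre sample 2 (0.0610), and that of *Col1a1* also with a single prior variance (0.0698). *Tcf21*, a defining transcription factor of cardiac fibroblasts, had only 4 to 16 normalized counts.

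The 8 endothelial markers summed to 1196, 2286 and 2545 in CtrlCre and 2599, 2619 and 2215 in Cpt1bcKO samples, with CtrlCre sample 1 far below the rest. The 8 leukocyte markers summed to between 135 and 245 in CtrlCre and between 180 and 194 in Cpt1bcKO samples, and the 3 glial markers in the table to between 22 and 44. The mural markers summed to between 3422 and 4761 in CtrlCre and between 2782 and 3088 in Cpt1bcKO samples, most of it from *Abcc9*, a subunit gene of ATP-sensitive potassium channels that CMs also express. *Abcc9* fell from 2839, 2867 and 2839 to 1579, 1597 and 1739 normalized counts (log2 fold change −0.80 and limma's adjusted *P* = 0.0123), a call lost without CtrlCre sample 2 (0.0632) or 3 (0.0686), without Cpt1bcKO sample 2 (0.0920) and with a single prior variance (0.109). Without *Abcc9*, the sums were 583 to 1922 and 1043 to 1509 and the groups overlapped.

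Fibroblasts are a known source of *Igf1* in the heart, and endothelial cells express *Nrg1*, *Met* and *Igfbp7*. The ratio of the group means was 1.82 for the summed fibroblast markers and 1.23 for the endothelial markers, with single fibroblast markers between 1.39 (*Pdgfra*) and 2.75 (*Lum*) times the control in the fit. The fitted fold change was 1.98 for *Igf1*, 1.69 for *Egfr*, 2.67 for *Nrg1* and 5.20 for *Met*. The part of other cell types in these differences was not tested. *Erbb4* fell to 0.525 times its control level. The single CM markers lay between 0.501 (*Tnni3*) and 0.858 (*Tnnt2*) times the control. Their sum, to which *Ttn* and *Myh6* add most, lay at 0.807. Cpt1bcKO sample 1 was the lowest of all samples in *Erbb4* and in that sum. *Ttn* (151007 against 340512 and 360030 in Cpt1bcKO samples 2 and 3) and *Ryr2* were also lowest there. In contrast, *Tnni3*, *Actn2*, *Myl2* and *Myl3* were highest in sample 1 among the Cpt1bcKO samples, with *Myh6* and *Tnnt2* in between. The part of the CM markers in the result for *Erbb4* was not tested.

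**Figure D4:**
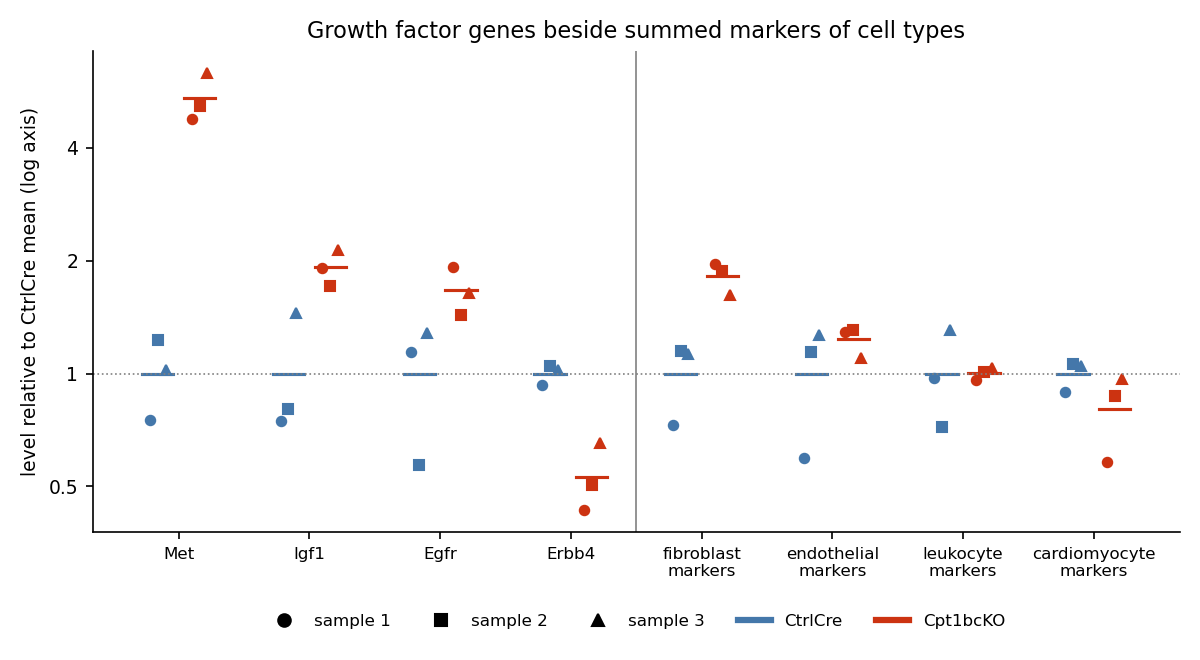
Levels of *Met*, *Igf1*, *Egfr* and *Erbb4* and summed normalized counts of marker lists in each sample, relative to the CtrlCre mean (log axis), with symbols as in the plot of normalized counts by sample. Fibroblast markers are higher in all Cpt1bcKO samples than in all CtrlCre samples (ratio of means 1.82), as is *Igf1*, and *Met* lies above 4 in all of them.

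Results for the 3 genes with an unadjusted *P* value below 0.05 differ in how they hold across settings. *Met* kept an adjusted *P* value below 0.05 in all 16 alternative fits, whereas *Erbb4* lost it in 8. *Igf1* stayed between 0.81 and 1.28 on the log2 scale and passed the threshold in 1 of the 16, the fit with a replicate block, with adjusted *P* values in limma of 0.0313 to 0.327.

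**Figure D5:**
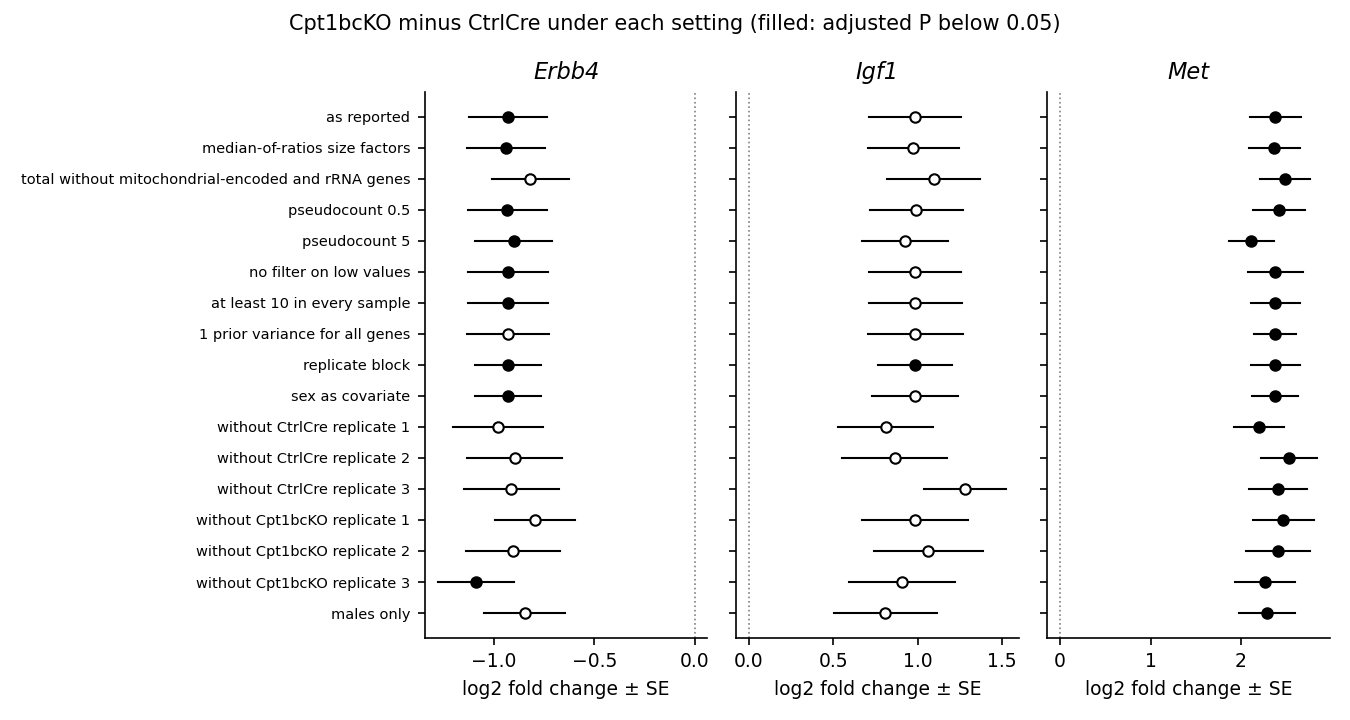
Log2 fold change ± standard error of *Erbb4*, *Igf1* and *Met* as reported and in 16 alternative fits, named at the left, with filled circles for an adjusted *P* value below 0.05 in limma. *Met* is filled in all rows, *Igf1* only with the replicate block, and *Erbb4* is open in 8, among them 5 of the 6 fits without 1 sample.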

How the data were processed

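RNA-seq libraries of adult CMs (3 CtrlCre, 3 Cpt1bcKO) had been made with a stranded total RNA kit. Per the methods and the submitters' processing notes, the authors trimmed reads with Trimmomatic 0.36, aligned them to mm10 (GRCm38.p5) with STAR 2.5.4b, counted reads on genes with featureCounts 1.6.0, left out reads hitting more than 1 gene or region, and normalized with DESeq2 1.14.1. Whether counting used strand is not given in the sources used here, so reads of overlapping antisense genes may not be told apart. The deposited values are whole-number scores, that is, counts divided by a size factor and rounded, so no count test was run. The deposited group means (a signal column), log2 fold changes and p-values of the authors' own comparison were not used.

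Values were compared as log2(value + 1) with limma 3.58.1 (lmFit, eBayes with trend; R 4.3.3) in genes with at least 10 in at least 3 samples, with Benjamini–Hochberg adjustment over all 11364 genes and a threshold of 0.05. Figures were drawn with matplotlib 3.10.9. Members, gene lists and tests were chosen with earlier results of these data known. Named are all members, fixed direct ligands and related receptors, list genes with a P value below 0.05 (not all are reported here), the 3 genes most alike to each called member, and *Cpt1b*; marker genes passing the threshold were added after their values were seen. Exon lengths and antisense overlaps come from GENCODE vM21 (GRCm38), in which all 92 genes looked up were found, 64 with identical start and end; coordinates are those of the deposited table. On simulated data with 200 changed genes, 75.5% of tested genes with a log2 change of 1 and 100% of those with 2 were called, and 0.0892% of unchanged genes. All genes were simulated with the same dispersion and without effects of sex or sample. Spread differs between the real genes, so these shares do not hold for single genes here. Alternatives were other scalings, pseudocounts (0.5 and 5), filters, a single prior variance, a replicate block, a sex covariate, leaving out each sample, and, added after seeing the data, males only.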

Additional observations from a re-analysis of the deposited data

How the results depend on the processing

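Of 16 alternative fits, all kept the direction and the call of *Met*, and all kept the direction of *Erbb4*, *Igf1*, *Egfr*, *Nrg1*, *Igf1r*, *Adam19* and *Pik3r1* where these were tested. The number of the 10 genes called was 2 as reported and 1 (*Met* alone) with samples scaled to their total outside mitochondrial-encoded and rRNA genes, with a single prior variance and in males only; it was 1 to 2 without 1 sample. That scaling moved the median over all genes to 0.11 (log2), made 58.0% of called genes higher instead of 42.1%, and called 15 instead of 8 further pathway genes at an unadjusted P value below 0.05 (15.3% instead of 13.9% of all genes). With a single prior variance, 5 of the 10 genes (unadjusted, beside 13.0% of all genes) and 0 further pathway genes (adjusted) were called, and 41 instead of 178 genes overall. With sex as covariate, 5 (*Pik3r1*, *Fgf16*, *Grb10*, *Fgf2* and *Adam19*, adjusted) and 16 (unadjusted, beside 20.8% of all genes) pathway genes and 574 genes overall were called. Without 1 sample each, 0 to 3 (adjusted) and 7 to 16 (unadjusted, beside 8.86% to 19.9% of all genes) pathway genes were called. In these fits 42 to 329 genes overall were called, the overall count being lowest without Cpt1bcKO sample 2 and highest without Cpt1bcKO sample 1. The cause of these shifts was not tested.

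The replicate numbers gave correlations of 0.376, 0.255 and 0.0684 between same-numbered samples of the groups (deviations from group means, across genes), and CtrlCre sample 3 correlated more with Cpt1bcKO sample 2 (0.119), so the numbers were not taken as pairs. With a replicate block, 603 genes, 3 of the 10 (*Igf1* added, adjusted P = 0.0313 in limma), 7 pathway genes (*Gab1* and *Igfbp7* beside those 5, adjusted) and 15 (unadjusted, beside 20.8% of all genes) were called.

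Changes near 0 turned sign. Without 1 sample, *Erbb2* ranged from −0.17 to 0.20, *Erbb3* from −0.36 to 0.039, *Fgfr1* from −0.010 to 0.23, *Igf2r* from −0.13 to 0.046, *Hbegf* from −0.18 to 0.15 and *Igf2* from −0.47 to 0.84. In males only, *Erbb3* was 0.21, *Igf2r* 0.027, *Hbegf* 0.26 and *Igf2* −0.44. With the scaling above, *Igf2r* was 0.079 and *Hbegf* 0.10. *Nrg1*, *Egfr* and *Met* had under 20 normalized counts in every control, which limits their precision.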
